A study of Bos taurus with 6 samples.

Results

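The sirtuins are a family of 7 deacylases, SIRT1 to SIRT7, and their transcripts were examined here in bovine blastocysts from oocytes matured with or without melatonin (MT). The members were the rows of the deposited table whose gene symbol is one of these 7 names. Each symbol was found once, so the 7 genes make up the whole family among 36075 listed genes. In the MT-treated group, cumulus-oocyte complexes from slaughterhouse ovaries were matured in vitro for 22 h with 1e-07 mol/L MT, and in the control group they were matured without MT. Both groups were then fertilized with frozen-thawed semen and cultured to the blastocyst stage without any difference named in the methods. Each group had 3 libraries, each from a pool of 3 blastocysts, so that trophectoderm and inner cell mass were measured together and MT had acted on the oocyte, not on the blastocyst itself. Values are in TPM, a transcript abundance scaled by gene length and library total, so that levels of different genes can be set side by side, and "after MT" stands for the MT-treated libraries. The listed values summed to 936783 to 937698 TPM per library in control and 912685 to 913707 TPM after MT, so the library totals were not equal. TPM holds no counts, and the sequencing depth that the study recorded per library was not used here.

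Sirtuins use NAD+ as a co-substrate and remove acetyl or longer acyl groups from lysines, which releases nicotinamide. Their activity therefore depends on NAD+ supply, and they are known as links between metabolic state, chromatin and mitochondrial function, including in oocytes and preimplantation embryos. SIRT1 and SIRT6 work mainly in the nucleus, SIRT7 in the nucleolus, SIRT2 mainly in the cytosol, and SIRT3, SIRT4 and SIRT5 in mitochondria.

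The 2 groups differed across most of the transcriptome, and each sirtuin value has to be read against that background. Pearson correlations of log2(TPM + 1) across tested genes were 0.991 to 0.999 within groups and 0.544 to 0.546 between groups. Between 8854 and 8953 genes were above 0 in the control libraries, and between 14372 and 14408 in the MT-treated libraries. Trophectoderm markers summed to 11440 to 11782 TPM in control and 10724 to 11087 TPM after MT, and inner cell mass markers to 209 to 209.6 and 289.7 to 294 TPM. KRT8 carried most of the trophectoderm sum, with 8541 to 8828 TPM in control and 6756 to 7010 TPM after MT. POU5F1 carried most of the inner cell mass sum, with 188.31 to 191.28 and 190.57 to 194.08 TPM (adjusted p = 0.223 by limma). KLF4 carried most of the difference between the inner cell mass sums, with 17.33 to 19.17 and 83.59 to 84.04 TPM. Trophectoderm calls were 7 higher and 1 lower as tested, 8 higher and 0 lower after median centring and 6 higher and 1 lower after quantile normalization. Inner cell mass calls were 3 higher and 1 lower, 4 higher and 0 lower, and 3 higher and 1 lower under the same scalings, and in the fit as tested 3 of these 4 calls were of genes that met the minimum of 1 TPM through a single group. CDX2 and NANOG, defining markers of these lineages, were listed at 0 in every control library. Among the other inner cell mass markers, SOX2 and KLF4 were also higher after MT, and POU5F1 was not called. LIN28B was lower, with means of 1.21 TPM in control and 0.42 TPM after MT. Hypoblast markers summed to 0.2 to 0.44 TPM in control and 61.2 to 69.6 TPM after MT, with 1 of 5 above 0 in control and 4 of 5 in MT-treated libraries. Of 6 oocyte markers, none was above 0 in control and 2 were in MT-treated libraries, at a summed 1.03 to 1.44 TPM. Of 7 cumulus and granulosa cell markers, FSHR alone was above 0 in control and 3 were after MT, and the list summed to 17.2 to 19.2 TPM in control and 15.1 to 17.1 TPM after MT. Genes that every cell uses, looked up after the sirtuin values were seen, were not at 0 throughout a group, either among 13 listed subunits of the core proteasome or among 12 of RNA polymerase II. Other widely used genes were, such as CREBBP in control, so a control value of 0 is given only as listed and not as a lack of the transcript. Whether libraries of the groups were prepared or counted alike was not tested, nor was the part of these differences in the sirtuin values. In pooled embryos, fewer cells of a type and less RNA per cell cannot be told apart.

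Of the 7 sirtuins, 6 reached 1 TPM in 3 or more libraries and were tested, and SIRT4 was listed at 0 in all 6 libraries. In MT-treated compared to control blastocysts, SIRT1, SIRT2, SIRT6 and SIRT7 were higher and SIRT3 and SIRT5 were lower. SIRT1, SIRT2 and SIRT5 were above 0 in all libraries and passed the test (limma on log2(TPM + 1), Benjamini-Hochberg adjusted p from 1.11e-08 to 6.86e-05), where 95.7% of the 11953 tested genes were called. SIRT3, SIRT6 and SIRT7 met the minimum of 1 TPM through the group in which they were high, so that they had to differ, and their calls are given without a p-value and not as support. Of called genes, 5190 of 7367 higher and 741 of 4071 lower ones had 1 TPM or more throughout one group only. Of these, 4037 higher genes were at 0 throughout control and 360 lower genes at 0 throughout MT-treated libraries, so that they had to differ. The rest were above 0 in some library of each group and were not all bound to differ. SIRT1, SIRT2 and SIRT5 belong to the 5988 genes with at least 1 TPM in all libraries. Of these genes, 2177 (36.4%) were called higher and 3330 lower, and of the 3 sirtuins 2 were higher and 1 was lower. In the gene lists below, too, calls that the minimum fixed are counted but are not support. Higher calls made up 61.6% and lower calls 34.1% of all tested genes, so that 4 higher and 2 lower of 6 sirtuins lie near the background shares. These shares include the calls of genes that met the minimum through one group. The control and MT-treated values did not overlap for any of the 6, as for 96.1% of tested genes. Both detected members of the mitochondria were lower and the 4 members of other compartments were higher, except that SIRT2 and SIRT6 turned lower after quantile normalization. Because 4037 tested genes were listed at 0 throughout control and 360 throughout MT-treated blastocysts, a sirtuin listed at 0 in a group is given by its library values and without a fold change.

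**Figure D1:**
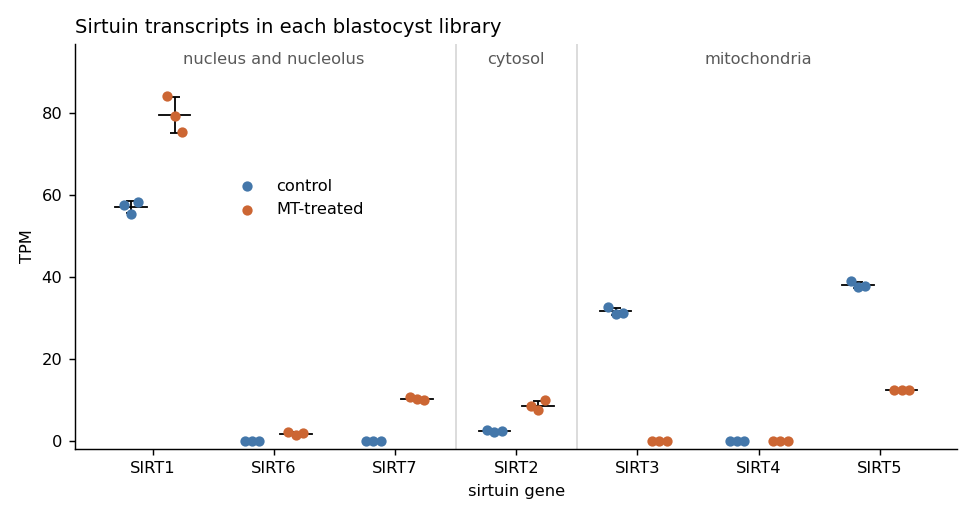
TPM (vertical axis) of the 7 sirtuins in each library, grouped by the compartment of the protein, with control in blue and MT-treated in orange. Points are libraries, horizontal lines are means and error bars are SD over 3 libraries, drawn only where a group is above 0. SIRT1 was the most abundant member in both groups, and SIRT3 is at 0 in every MT-treated library.

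Among the nuclear members, SIRT1, which deacetylates histones and transcription factors such as p53 and the FOXO proteins, was the most abundant sirtuin in both groups. SIRT1 (ENSBTAG00000014023) had 57.62, 55.52 and 58.24 TPM in control and 84.28, 79.35 and 75.45 TPM after MT. Every MT-treated library lay above every control library. The mean rose from 57.1 ± 1.43 to 79.7 ± 4.43 TPM (SD, n = 3 each), 1.4-fold higher at a log2 fold change of 0.47 on the log2(TPM + 1) scale with SE 0.05 (limma, adjusted p = 6.86e-05).

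SIRT6 (ENSBTAG00000019909), a chromatin-bound histone deacylase with roles in DNA repair and telomere maintenance, was listed at 0 in every control library. Its MT-treated libraries had 2.08, 1.35 and 1.76 TPM, the lowest level of any sirtuin detected in that group. Of 1652 other genes with an MT-treated mean within 2-fold of SIRT6, 939 (56.8%) were also listed at 0 throughout control. SIRT7 (ENSBTAG00000000039), the nucleolar member linked to ribosomal RNA transcription, showed the same form at a higher level. It read 0 in each control library and reached 10.57, 10.16 and 10.03 TPM after MT. Among 4496 other genes within 2-fold of the MT-treated mean of SIRT7, 2122 (47.2%) were listed at 0 throughout control.

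The cytosolic member SIRT2 (ENSBTAG00000001776), a tubulin deacetylase that also acts on cell cycle proteins, was the least abundant sirtuin detected in control. It had 2.52, 2.07 and 2.29 TPM in control and 8.43, 7.48 and 9.82 TPM after MT. The mean rose 3.74-fold, from 2.29 ± 0.225 to 8.58 ± 1.18 TPM (SD, n = 3 each), at a log2 fold change of 1.54 with SE 0.10 (limma, adjusted p = 9.62e-06). Under quantile normalization the log2 fold change was -1.14 (adjusted p = 1.20e-05 by limma), so the direction of SIRT2 held under TPM scaling and not under that alternative.

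The mitochondrial members carried the falls. SIRT3 (ENSBTAG00000002044) is the main deacetylase of the mitochondrial matrix, with the superoxide dismutase SOD2 and the NADPH-producing enzyme IDH2 among its substrates. It had 32.68, 30.98 and 31.14 TPM in control and read 0 in each of the 3 libraries after MT. The control mean of 31.6 ± 0.939 TPM (SD, n = 3) lay above 61.9% of detected genes. Of 2559 other genes with a control mean within 2-fold of SIRT3, 158 (6.17%) were listed at 0 throughout MT-treated blastocysts. In the RefSeq gene table of assembly ARS-UCD2.0, which is not the build of the deposited values, the SIRT3 gene overlaps NBAS, a gene of vesicle transport. NBAS, looked up after the SIRT3 values were seen, had 22.99, 23.03 and 22.99 TPM in control and 61.13, 59.91 and 61.15 TPM after MT. In the same table SIRT1 overlaps a pseudogene and SIRT4 an snRNA gene, and whether reads were counted by strand is not given in the sources used here.

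SIRT5 (ENSBTAG00000014904), which removes succinyl, malonyl and glutaryl groups from mitochondrial enzymes, fell but stayed above 0 in every library. Its values were 38.97, 37.59 and 37.76 TPM in control and 12.37, 12.29 and 12.32 TPM after MT. The control mean of 38.1 ± 0.752 TPM was 3.09 times the MT-treated mean of 12.3 ± 0.0404 TPM (SD, n = 3 each), at a log2 fold change of -1.55 with SE 0.03 (limma, adjusted p = 1.11e-08). SIRT4, a mitochondrial member with lipoamidase and ADP-ribosyltransferase activity (ENSBTAG00000021168), was listed at 0 in all 6 libraries and could not be compared.

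In control blastocysts the order of levels in TPM was SIRT1, SIRT5, SIRT3 and SIRT2. In MT-treated blastocysts it was SIRT1, SIRT5, SIRT7, SIRT2 and SIRT6. No neighbours in either order had overlapping ranges over the 3 libraries. The closest pair was SIRT7 and SIRT2 in MT-treated blastocysts, with 10.03 TPM in the lowest library of SIRT7 and 9.82 TPM in the highest of SIRT2. SIRT1 exceeded SIRT5 in TPM 1.48, 1.48 and 1.54 times in the control libraries and 6.81, 6.46 and 6.12 times in the MT-treated libraries.

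The composition of the family, which does not depend on how a library was scaled as a whole, shifted from mitochondrial to nuclear members. The 7 sirtuins together had between 126 and 132 TPM in the control and between 109 and 118 TPM after MT. Of this sum, SIRT3 and SIRT5 together made up 54.4%, 54.4% and 53.2% in the control libraries and 10.5%, 11.1% and 11.3%, all of it SIRT5, in the MT-treated libraries. SIRT1, SIRT6 and SIRT7 together made up 44.2% ± 0.67 in control and 81.4% ± 1.43 in MT-treated blastocysts (SD, n = 3 each). The share of SIRT1 alone went from 44.2% ± 0.67 to 70.8% ± 1.55, and that of SIRT2 from 1.77% ± 0.136 to 7.63% ± 1.18 (SD, n = 3 each). In shares of summed log2(TPM + 1), which weigh abundant members less, the share of SIRT1 differed by 1.95 percentage points in place of 26.5. On that scale SIRT5 differed by -9.09 points in place of -18.6, SIRT6 by 7.88 in place of 1.53 and SIRT7 by 19.1 in place of 9.11. SIRT7 took 9.11% ± 0.115 and SIRT6 1.53% ± 0.281 of the sum in MT-treated blastocysts (SD, n = 3 each). For each of the 6 detected members, the shares in control and MT-treated libraries did not overlap, and no test was made of them. The TPM values of 96.1% of tested genes did not overlap between the groups either. SIRT3, SIRT6 and SIRT7 had a share of 0 throughout a group, so that their shares had to differ.

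**Figure D2:**
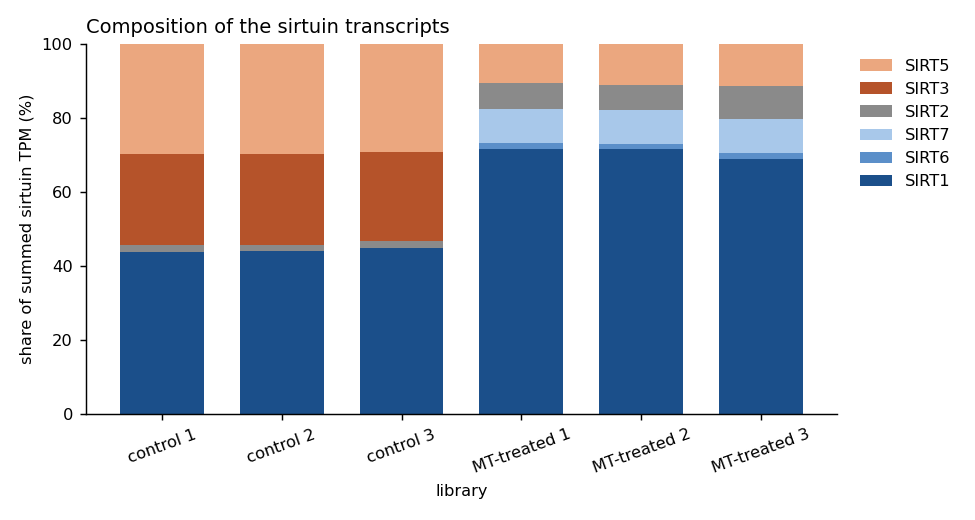
Share of each sirtuin in the summed sirtuin TPM (vertical axis, percent) in each of the 6 libraries (horizontal axis). Blue shades are the nuclear and nucleolar members, grey is cytosolic SIRT2 and orange shades are mitochondrial members. SIRT3 and SIRT5 make up 53.2% to 54.4% of each control bar and SIRT5 alone 10.5% to 11.3% of each MT-treated bar.

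The size of these differences depended on how libraries were put on a common scale. Over the 5988 genes with at least 1 TPM in all libraries, the median log2(TPM + 1) differed by -0.479 between MT-treated and control libraries. With each library centred on that median, the log2 fold change of SIRT1 was 0.95, that of SIRT2 was 2.01 and that of SIRT5 was -1.07. After quantile normalization, SIRT1 was at 0.76 and SIRT5 at -2.67 on the same scale. Calls over all tested genes were 7367 higher and 4071 lower as tested, 8412 higher and 3038 lower after centring, and 5550 higher and 5311 lower after quantile normalization. SIRT1 and SIRT5 kept their direction and their call under each of these scalings. SIRT3 and SIRT7 kept their direction too, but they met the minimum through a single group, so this is not support. Quantile normalization gives tied values the same mean rank value, so the zeros of SIRT6 and SIRT7 became 1.11 on the log2 scale in each control library. The MT-treated values of SIRT6 then lay below it, at 0.813, 0.611 and 0.732, and those of SIRT7 above it, at 1.86, 1.78 and 1.77.

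**Figure D3:**
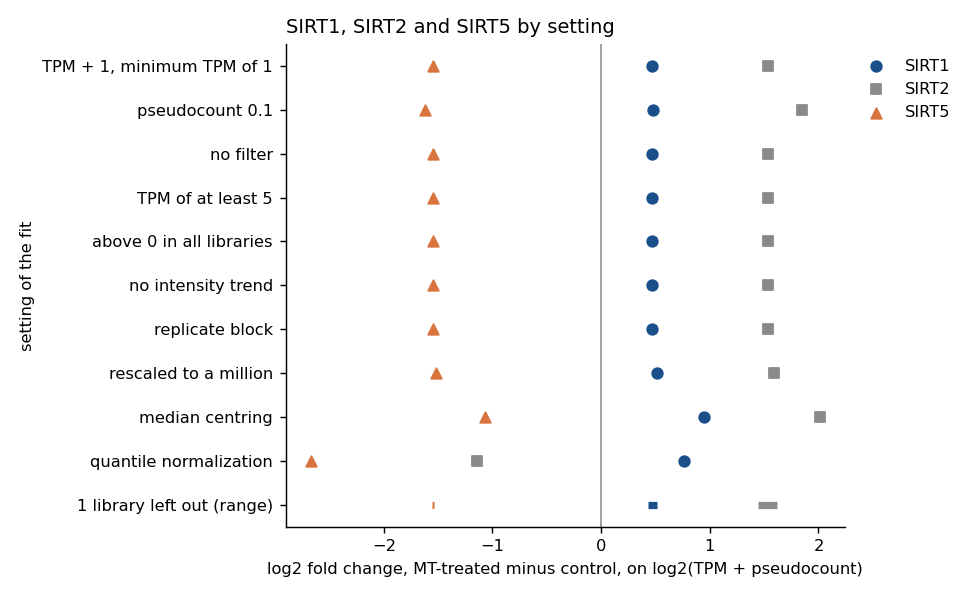
Log2 fold change between MT-treated and control blastocysts (horizontal axis) of the 3 sirtuins above 0 in all libraries, under each setting of the fit (vertical axis). Points are single fits and bars span the fits that leave out 1 library. SIRT1 stays above 0 and SIRT5 below 0 in each setting, while SIRT2 moves to -1.14 under quantile normalization.

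Sirtuins draw on NAD+, and the genes that make it were compared next. In the NAD+ synthesis list, 8 of 18 genes were tested, of which 6 rose (75.0%, beside 61.6% of all tested genes) and 2 fell after MT, and 8 were listed at 0 in all libraries. The median log2 fold change was 1.71, against 1.12 over all tested genes. After quantile normalization the list had 4 higher and 4 lower genes. NAMPT, the rate-limiting enzyme of the nicotinamide salvage route, had 10.61, 10.41 and 10.43 TPM in control and 0.9, 1.19 and 0.95 TPM after MT. The mean was 10.3 times higher in control, a difference given without a test because NAMPT met the minimum through control. NMNAT1, the nuclear enzyme that completes NAD+ synthesis, fell from 42.6 ± 0.762 to 19.4 ± 1.37 TPM (SD, n = 3 each, adjusted p = 1.91e-06 by limma). The log2 fold change of NMNAT1 was -1.10 as tested and -0.62 after median centring. Both rises of largest size in this list were of genes with 0 TPM in each control library. NMRK1, a kinase that feeds nicotinamide riboside into NAD+ synthesis, had 36.24, 35.38 and 36.9 TPM after MT. SLC25A51, the carrier that brings NAD+ into mitochondria, had 17, 16.84 and 18.13 TPM. Of the 6 higher genes in this list, 5 were listed at 0 throughout control and met the minimum through MT-treated libraries alone.

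Among other enzymes that consume NAD+, 6 of 8 tested genes were higher and 2 lower, with a median log2 fold change of 2.7. The share of higher genes was 75.0%, beside 61.6% of all tested genes, whose median was 1.12. In this list 5 were higher and 3 lower after quantile normalization. Of the 6 higher genes, 5 met the minimum through MT-treated libraries alone and had to be higher. Both falls were in the members with the highest control levels. PARP1, a DNA damage sensor that uses NAD+ to build poly(ADP-ribose), fell from 86.5 ± 1.89 to 53.2 ± 0.411 TPM (SD, n = 3 each, adjusted p = 2.96e-07 by limma). CD38, an NAD+ glycohydrolase, fell from 75.1 ± 2.89 to 35.1 ± 0.531 TPM (SD, n = 3 each, adjusted p = 2.02e-07 by limma). After median centring the log2 fold change of PARP1 was -0.21 in place of -0.69, and that of CD38 was -0.60 in place of -1.08. PARP4 read 0 in each control library and reached 45.07, 37.17 and 40.96 TPM after MT, and PARP16 had 0, 0 and 0.02 TPM against 39.05, 31.68 and 41.66 TPM.

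Genes known to regulate SIRT1 were also compared. Of 7 tested, 6 were higher (85.7%, beside 61.6% of all tested genes), none was lower and CTBP1 did not pass the threshold (adjusted p = 0.0967 by limma, called at 0.57 after centring and at -1.91 after quantile normalization), with a median log2 fold change of 1.74 against 1.12 over all tested genes. CCAR2, one of the 6, lost its call in most fits without a library, and 3 others met the minimum through MT-treated libraries alone. After quantile normalization 5 were higher and 2 lower. DYRK1A, a kinase that phosphorylates SIRT1, had 0.03, 0.05 and 0 TPM in control and 60.22, 63.15 and 64.64 TPM after MT. SETD7, a lysine methyltransferase that binds SIRT1, read 0 in each control library and reached 15.07, 10.49 and 15.69 TPM. The protein partners of SIRT1 with opposite effects, chosen for mention after their values were seen, were both measured above 0. The activator RPS19BP1 rose at a log2 fold change of 1.68, with means of 45.8 ± 0.906 and 149 ± 7.21 TPM in control and after MT (SD, n = 3 each; adjusted p = 4.98e-08 by limma). The inhibitor CCAR2 differed by 0.10 on the log2 scale, with means of 14.2 ± 0.205 and 15.3 ± 0.611 TPM in control and after MT (SD, n = 3 each; adjusted p = 0.0411 by limma). The CCAR2 call was lost on leaving out any library except MT-treated replicate 2, with adjusted p of 0.0697 to 0.115 by limma, and quantile normalization turned its log2 fold change to -0.77.

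In the list of nuclear and cytosolic substrates, 68.2% of tested genes were higher, beside 61.6% of all tested genes. Of the 22, 15 were higher, 6 were lower and FOXO3 did not pass (adjusted p = 0.0581 by limma, called at 0.74 after centring and at -1.78 after quantile normalization), with a median log2 fold change of 1.52 against 1.12 over all tested genes. Of the 15 higher genes, 9 met the minimum through MT-treated libraries alone, and of the 6 lower genes 1 did through control alone. The FOXO3 call also turned on single libraries, with adjusted p = 0.0415 by limma without MT-treated replicate 2 and 0.0439 without MT-treated replicate 3, at log2 fold changes of 0.14 and 0.33 in place of 0.26. After quantile normalization 11 were higher and 9 lower. EP300 and CREBBP, related histone acetyltransferases that are themselves deacetylated by sirtuins, moved in opposite directions. EP300 fell from 34.8 ± 0.571 to 7.95 ± 0.281 TPM (SD, n = 3 each, adjusted p = 1.16e-08 by limma). CREBBP read 0 in each control library and reached 17.22, 25.17 and 26.19 TPM after MT. SREBF1, a regulator of fatty acid synthesis, fell from 18.1 ± 0.95 to 4.57 ± 0.509 TPM (SD, n = 3 each, adjusted p = 9.54e-07 by limma). Quantile normalization moved the log2 fold change of EP300 from -2.0 to -3.48 and that of SREBF1 from -1.78 to -3.13. XRCC6, which encodes the Ku70 protein of DNA end joining, had 0, 0.02 and 0 TPM in control and 31.94, 29.76 and 30.31 TPM after MT.

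Substrates of the mitochondrial sirtuins had the lowest median of the 6 lists. Of 21 tested genes, 11 were higher (52.4%, beside 61.6% of all tested genes), 9 were lower and HADHA did not pass (adjusted p = 0.925 by limma, called at 0.47 after centring and at -0.67 after quantile normalization), with a median log2 fold change of 0.17 against 1.12 over all tested genes. The split was 15 higher and 5 lower after centring and 10 higher and 11 lower after quantile normalization, so no direction is given for this list. Of the 11 higher genes, 4 met the minimum through MT-treated libraries alone. IDH2, the mitochondrial isocitrate dehydrogenase activated by SIRT3, had 62.58, 61.74 and 66.11 TPM in control and 1.35, 1.89 and 1.86 TPM after MT. Its mean was 37.3 times higher in control, at a log2 fold change of -4.58 with SE 0.09 (limma, adjusted p = 1.91e-08). PPIF, the cyclophilin of the permeability transition pore, fell from 37.8 ± 2.32 to 12 ± 0.863 TPM (SD, n = 3 each, adjusted p = 9.28e-07 by limma). Quantile normalization moved its log2 fold change from -1.58 to -2.79. SOD2, chosen for mention after its values were seen, fell from 185 ± 4.13 TPM in control to 119 ± 3.43 TPM after MT (SD, n = 3 each), at a log2 fold change of -0.63 (adjusted p = 1.33e-06 by limma), which was -0.15 after median centring. CPS1, the urea cycle enzyme acted on by SIRT5, read 0 in each control library and reached 18.98, 19.53 and 20.47 TPM after MT. ALDH2, the mitochondrial aldehyde dehydrogenase, had 0.02, 0.05 and 0.07 TPM in control and 25.79, 25.79 and 26.11 TPM after MT.

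The zinc-dependent deacetylases, which remove acetyl groups without NAD+, gave another family for comparison. Of 8 tested, 7 were higher and HDAC1 was lower, with a median log2 fold change of 1.58. Higher genes made up 87.5%, beside 61.6% of all tested genes, whose median was 1.12. Of the 7 higher genes, 3 met the minimum through MT-treated libraries alone, and 5 were higher and 3 lower after quantile normalization. HDAC1, the most abundant of them and a subunit of nuclear corepressor complexes, fell from 227 ± 0.246 to 154 ± 0.917 TPM (SD, n = 3 each, adjusted p = 5.88e-08 by limma). HDAC5, a deacetylase that shuttles between nucleus and cytosol, rose 9.75-fold from 1.43 ± 0.0666 to 13.9 ± 0.201 TPM (SD, n = 3 each, adjusted p = 4.31e-09 by limma). The log2 fold change of HDAC1 was -0.55 as tested and -0.07 after median centring, and that of HDAC5 was 2.62 as tested and 0.50 after quantile normalization. HDAC4, a relative of HDAC5, read 0 in each control library and reached 8.91, 8.32 and 7.43 TPM after MT. Whether this family and the sirtuins differed in their response was not tested.

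**Figure D4:**
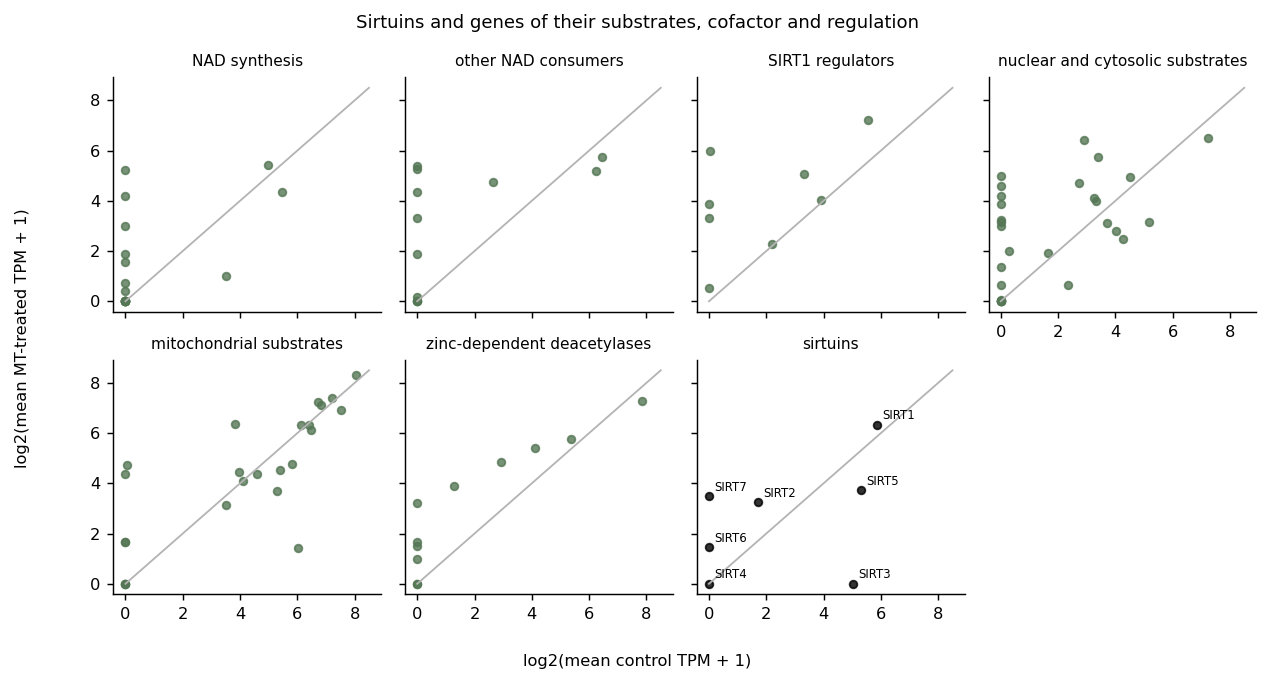
Mean level in control (horizontal axes) and MT-treated blastocysts (vertical axes), both as log2(mean TPM + 1) over 3 libraries, for the sirtuins and the 6 lists. Each point is a gene and the diagonal marks equal levels. Points on the left edge are genes at or near 0 in control, and SIRT3 lies on the bottom edge.

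The genes closest in pattern to each tested sirtuin were found by the root mean square difference of log2(TPM + 1) over the 6 libraries. For SIRT1 they were BRIX1 (0.0672) and SLC31A1 (0.0679), for SIRT2 ABCB8 (0.0761) and CDH26 (0.102), and for SIRT3 ZNF2 (0.0245) and ZDHHC24 (0.0496). For SIRT5 they were PPIF (0.0719), a member of the mitochondrial substrate list, and TYRO3 (0.0739). For SIRT6 they were CATSPERG (0.0552) and MON1B (0.0564), and for SIRT7 ZMYM3 (0.0102) and IPO9 (0.0152). With libraries falling into 2 tight groups, such a match says little more than that both group means are alike.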

How the data were processed

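The deposited table holds the TPM of each gene in each library to 2 decimals. Per the methods and the submitters' processing notes, reads were checked with FastQC 0.11.9, aligned with STAR 2.7.9a and counted with featureCounts (Subread 1.6.3). The notes name the genome build ARS-UCD1.2 and the methods a later one, and the protocol is Smart-seq2 in the methods and a TruSeq kit in the labels. How counts became TPM is not given in the sources used here. TPM holds no counts, so counting error is unknown, and the sequencing depths recorded by the study were not used here. MT concentration, maturation time and pool size came from the methods.

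Groups came from the sample titles. Replicates came from 3 production runs per group, but replicate numbers are not said to mark shared runs, and p-values measure the spread between these libraries. On the log2(TPM + 1) scale, 11953 genes reaching 1 TPM in 3 or more of 6 libraries were fitted in limma 3.58.1 under R 4.3.3 (lmFit, then eBayes with a trend on intensity), with two-sided p-values, Benjamini-Hochberg adjustment over all of them and a threshold of 0.05. An exact permutation test of 3 against 3 cannot go below p = 0.1, so none was run per gene. In simulated data for this comparison with 11953 genes, of which 200 were changed by 1 on the log2 scale, 93.5% were recovered with 13 false calls. These data were drawn as normal noise around a single mean per gene, without zeros throughout a group and without a shift in scale. They therefore do not measure the rate of false calls in the real comparison. Other steps used Python 3.11.15 with pandas 2.3.3, numpy 2.4.6 and, for plots, matplotlib 3.10.9.

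The sirtuins and the gene lists were chosen with earlier results of these data known. The 6 lists were written from general knowledge. Named genes were all members, up to 2 rises and 2 falls of largest size per list among called genes whose groups did not overlap, and the 2 nearest genes with a symbol per tested sirtuin. Genes of like level were those with a group mean within a factor of 2. A RefSeq table of ARS-UCD2.0 was used only to see which genes overlap, and sequences were not used here.

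The alternatives were no filter, a minimum of 5 TPM, a pseudocount of 0.1, quantile normalization, median centring, rescaling TPM to equal totals, genes above 0 in all libraries, no intensity trend, a replicate block and leaving out each library.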

Additional observations from a re-analysis of the deposited data

How the results depend on the processing

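SIRT1 and SIRT5 kept their direction and an adjusted p under 0.05 by limma in each alternative. Their log2 fold changes were 0.43 to 0.95 for SIRT1 and -2.67 to -1.07 for SIRT5. SIRT3 and SIRT7 kept their direction in each alternative that could fit them. This is not support, because they met the minimum through a single group. SIRT2 and SIRT6 were reversed by quantile normalization, at -1.14 and -0.39, and for SIRT6 the tied zeros of control took a value above 0. For SIRT2 the cause was not tested. That setting left 2 sirtuins higher and 4 lower. Among genes above 0 in all libraries, which leaves out SIRT3, SIRT6 and SIRT7 by construction, 2 sirtuins were higher and 1 lower. With that set of genes, 2814 were called higher in place of 7367 and 3626 lower in place of 4071. A minimum of 5 TPM left SIRT6 untested. SIRT4 could not be tested in any setting. The calls of SIRT1, SIRT2 and SIRT5 held when any library was left out. Those of SIRT3, SIRT6 and SIRT7 held too, which is not support because they met the minimum through a single group. Same-numbered libraries of both groups deviated with correlations of -0.0115, -0.000679 and 0.0588 across genes, so the numbers were not taken as pairs. The replicate block moved the calls to 7379 higher and 4082 lower. It cannot change a log2 fold change, as each replicate number occurs once per group, and SIRT1 stayed at 0.47, SIRT2 at 1.54 and SIRT5 at -1.55. The adjusted p by limma went from 6.86e-05 to 0.000417 for SIRT1, from 9.62e-06 to 4.83e-05 for SIRT2 and from 1.11e-08 to 2.55e-06 for SIRT5. Not every library correlated best with its own number. In shares of summed log2(TPM + 1) in place of TPM, the difference between MT-treated and control was 1.95 percentage points for SIRT1 in place of 26.5, 8.22 for SIRT2, -28.1 for SIRT3, -9.09 for SIRT5, 7.88 for SIRT6 and 19.1 for SIRT7, since the log compresses the abundant members. The 28 other tested genes named from the 6 lists or beside SIRT3 kept direction and call in 386 of 408 fits, and the other 22 fits were of CCAR2, CTBP1, FOXO3 and HADHA. Most of these genes were picked for large called differences in these same data, and many met the minimum through a single group. The count of fits is therefore not support. Under quantile normalization the log2 fold changes were -0.77 for CCAR2, -1.91 for CTBP1, -1.78 for FOXO3 and -0.67 for HADHA, and after centring they were 0.58, 0.57, 0.74 and 0.47 (each called by limma). That of HADHA, -0.01 as tested, was 0.03 after rescaling and -0.05 to 0.06 without single libraries. CTBP1 was called without control replicate 2, at 0.14. CCAR2 missed the threshold with the replicate block, among genes above 0 in all libraries and without 5 of the 6 libraries in turn. Without counts, a 0 cannot be given a detection limit.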

Other observations

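The spread between the 3 libraries of a group was uneven among the sirtuins. In MT-treated blastocysts the coefficient of variation was 0.328% for SIRT5, and of 4727 other genes within 2-fold of its level 0.233% had a lower one, with a median of 6.06%. In the same libraries it was 5.55% for SIRT1, 13.7% for SIRT2, 21.2% for SIRT6 and 2.75% for SIRT7, where genes of like level had medians of 3.01%, 6.53%, 10.7% and 6.29%. In control blastocysts the coefficients were 2.5% for SIRT1, 9.81% for SIRT2, 2.97% for SIRT3 and 1.97% for SIRT5, beside medians of 2.69%, 8.54%, 3.07% and 2.95% for genes of like level. SIRT5 was singled out after its values were seen, and each coefficient rests on 3 libraries.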
